A study of Mus musculus with 6 samples.

Results

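The genes described here are 8 receptors and bridging molecules of efferocytosis, the uptake of apoptotic cells: Mertk, Axl, Tyro3, Lrp1, Stab1, Gas6, Pros1 and Mfge8. They were chosen by gene symbol, with earlier results of these data known, and each matched 1 of the 54532 genes in the count table. Transcript levels came from RNA-seq of macrophages sorted from infarcted mouse hearts, 3 libraries from ITGA5 fl/fl mice and 3 from Myα5KO mice. Both groups were C57BL/6 mice, 12 weeks old, with a permanently ligated left anterior descending coronary artery, and cells were collected after 7 days of occlusion. Both groups carried Itga5 alleles flanked by loxP sites, the gene of the integrin α5 chain. Myα5KO mice also carried Cre recombinase under the LyzM promoter, which acts in lysozyme M-expressing myeloid cells, neutrophils and monocytes included, and the ITGA5 fl/fl mice were littermates for which no Cre is named. Carriage of Cre and loss of Itga5 therefore cannot be told apart in this comparison. Hearts of individual mice were digested, Ly6G+ cells were removed magnetically, and CD11b+ cells were kept, a gate that does not exclude monocytes or other CD11b+ leukocytes.

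Macrophages clear dying cells in a healing infarct through receptors that recognize phosphatidylserine exposed on the corpse. The TAM receptor tyrosine kinases (TYRO3, AXL and MERTK) do so through GAS6 and protein S, soluble proteins that bridge phosphatidylserine and the receptor, while MFG-E8 bridges it to αv integrins. LRP1 takes up corpses opsonized by calreticulin and C1q, and stabilin-1, encoded by Stab1, binds phosphatidylserine directly.

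The targeted gene followed the genotype labels. Counts of Itga5 were 9745, 9666 and 10536 in the control libraries, against 939, 915 and 895 for the knockouts, or 607 ± 43.2 and 48.7 ± 1.48 CPM (reads scaled to a common library size with TMM factors, SD, n = 3 each). It fell by 3.64 on the log2 scale (SE 0.081, adjusted p = 4.42e-12, edgeR), and Lyz2, the lysozyme M gene, went from 7315 ± 286 to 3874 ± 254 CPM (SD, n = 3 in each group, adjusted p = 4.27e-05, edgeR). Libraries held 15424451 to 18419287 counts. Each library was counted as a replicate because the study describes digestion of hearts of individual mice. Differences between libraries of a group exceeded counting noise in every pair, which cannot show that they came from separate mice. Summed CPM of 10 macrophage markers lay at 20521 to 20997 in ITGA5 fl/fl and 15665 to 16036 in Myα5KO libraries, with Lyz2 and Cd14 called lower and Cx3cr1 and Fcgr1 called higher. Without Lyz2 and Cd14 the other 8 markers summed to 8573 to 8690.1 and 8316 to 8698 CPM, so the ranges overlapped. The Cre of Myα5KO mice is driven from the lysozyme M gene, and the part of that Cre allele in the Lyz2 values and the 10-marker sum was not tested. Summed fibroblast markers lay at 2098 to 2387 and 1663 to 2025 CPM, and summed monocyte markers at 1343 to 1512 and 1794 to 2083 CPM. Nr4a1 alone made up most of the monocyte sum, at means of 1031 and 1376 CPM. Marker sums of granulocytes (187 to 226 and 246 to 372 CPM), cardiomyocytes (25.2 to 27.3 and 15.9 to 20.6 CPM) and T and NK cells (23.6 to 25.8 and 28.4 to 29.5 CPM) also did not overlap between the groups. Each marker list whose sum did not overlap had an exact permutation p of 0.1, the smallest this design allows (two-sided, 0.183 adjusted over 11 marker lists). Of 9 T and NK cell markers 5 did not pass the expression filter, and 0 of the 4 tested were called in edgeR. Cd4 made up most of the T and NK sum, at means of 19.3 and 20.9 CPM. Endothelial (495 to 522 and 509.9 to 546 CPM), mural (190.3 to 210.3 and 161 to 202 CPM) and dendritic cell (99.9 to 128 and 119 to 134 CPM) sums overlapped. In bulk libraries, fewer cells of a type and less RNA per cell cannot be told apart.

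To examine whether the clearance receptors and their ligands were expressed differently in macrophages without α5, each of the 8 genes was compared between the groups. None passed the test. At an adjusted p of 0.05 or less in edgeR, 0 of the 8 genes were called, against 8.75% of the 14522 genes tested (3.56% higher and 5.19% lower in Myα5KO). None had an unadjusted p under 0.05, against 23.1% of all tested genes, and in none did the 3 libraries of one group lie wholly above those of the other, against 28.6% of all tested genes. DESeq2 called 0 of the 7 genes to which it gave an adjusted p, against 9.24% of 12657 genes, and gave none for Tyro3. The median log2 fold change of Myα5KO over ITGA5 fl/fl was 0.0018 over the 8 genes and 0.015 over all tested genes. The median absolute log2 fold change was 0.11 for the 8 genes and 0.15 for all. Estimates were above 0 for 4 genes and below 0 for 4, although those of Mertk and Mfge8 changed sign when libraries were scaled by total counts alone. P-values here rest on the spread between 6 libraries, which edgeR and DESeq2 moderate with information from other genes.

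Among the TAM receptors, Axl and Mertk were abundant and Tyro3 was near its detection limit. Mertk, the receptor best known for corpse engulfment by macrophages, was at 231, 209.8 and 215 CPM in ITGA5 fl/fl libraries, against 233, 213 and 205 CPM for Myα5KO. The values interleaved, and the highest and the lowest of all 6 were both Myα5KO libraries. Group means were 218 ± 10.8 and 217 ± 14.5 CPM (SD, n = 3 each). The log2 fold change was -0.0077 (SE 0.071, 95% confidence interval -0.16 to 0.14, adjusted p = 0.966), so the interval spans a change of -10.5% to 10.5%. The difference was thus smaller than the spread between libraries of a group, and its absolute size exceeded that of only 2.99% of tested genes.

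Axl, the TAM receptor that binds GAS6 and not protein S, was at 443, 457 and 406 CPM in ITGA5 fl/fl libraries, against 446, 502 and 466 CPM for Myα5KO. The 2 highest libraries were Myα5KO and the lowest was ITGA5 fl/fl, with overlap between the groups. Means were 435 ± 26.6 and 471.5 ± 28.7 CPM (SD, n = 3 each), and the log2 fold change was 0.12 (SE 0.073, 95% confidence interval -0.043 to 0.27, adjusted p = 0.377). Of the 8 genes Axl had the smallest adjusted p, and the interval reaches from -2.91% to 20.8%.

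Tyro3, the TAM receptor best known from the nervous system, drew 8, 13 and 9 reads in ITGA5 fl/fl libraries, against 18, 12 and 12 for Myα5KO, or 0.536, 0.764 and 0.512 against 0.958, 0.642 and 0.631 CPM. The Myα5KO library of replicate 1 was the highest, and the others overlapped. The log2 fold change was 0.29 (SE 0.38, adjusted p = 0.702), with a 95% confidence interval of -0.53 to 1.12. At this depth neither a decrease of 30.9% nor an increase of 117% lies outside the interval, and a difference in Tyro3 was not detectable.

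**Figure D1:**
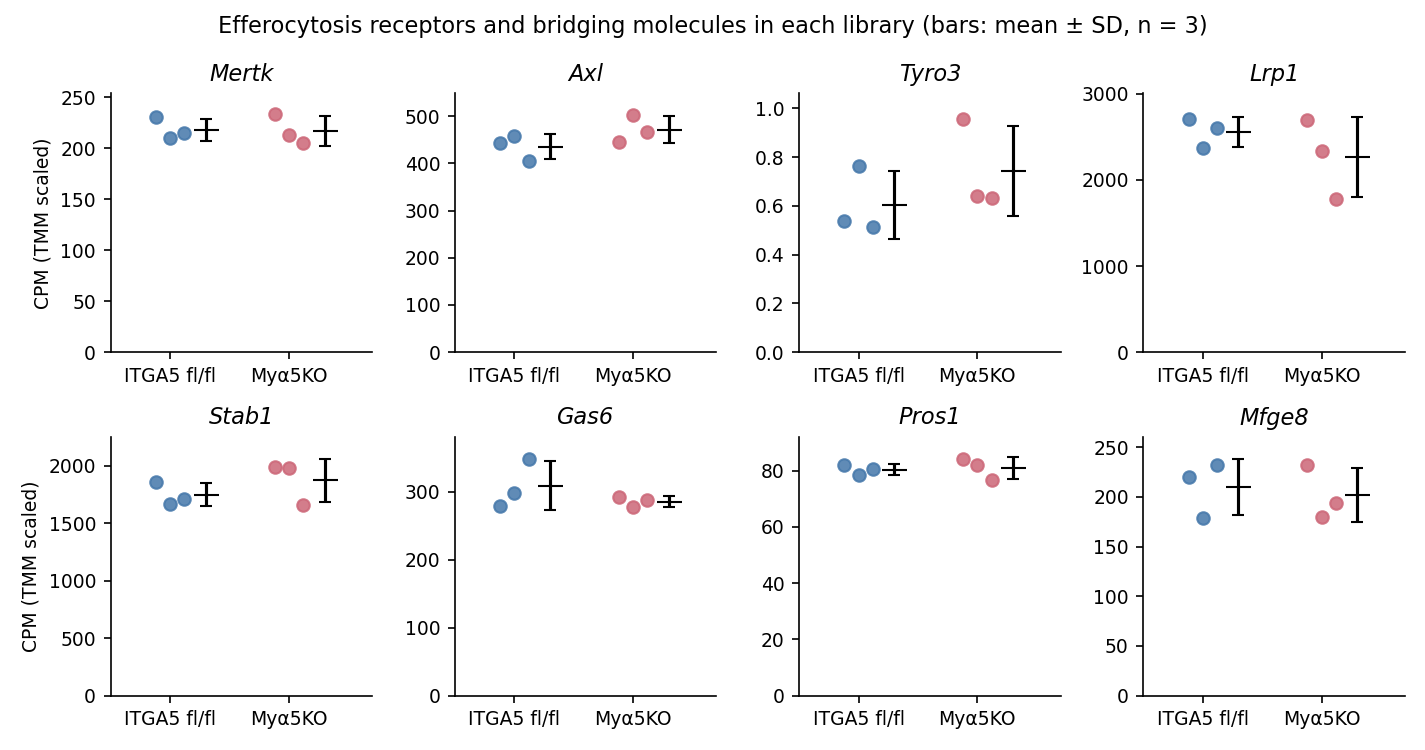
CPM (TMM scaled, linear axis from 0, a separate scale per gene) of the 8 genes, with 1 point per library, ITGA5 fl/fl in blue and Myα5KO in red, and bars for the mean ± SD of 3 libraries. Points of the groups overlap in every panel, Myα5KO replicate 3 lies apart for Lrp1 at 1777 CPM, and Tyro3 stays under 1 CPM.

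Lrp1, a large endocytic receptor of the LDL receptor family, showed the widest spread among the well-covered genes. It was at 2708, 2369 and 2599.9 CPM in ITGA5 fl/fl libraries, against 2697, 2338 and 1777 CPM for Myα5KO. Myα5KO replicate 1 lay near the highest ITGA5 fl/fl library and replicate 2 near the lowest, and Myα5KO replicate 3 lay below every other library. Its value was 0.43 lower on the log2 scale than the mean of all 6 libraries. Means were 2559 ± 173 and 2270.5 ± 464 CPM (SD, n = 3 each), and the log2 fold change was -0.17 (SE 0.12, 95% confidence interval -0.43 to 0.088, adjusted p = 0.428). Without Myα5KO replicate 3 the log2 fold change was -0.023 (adjusted p = 0.902), and without Myα5KO replicate 1 it was -0.32 (adjusted p = 0.0994). Lrp1 has a deposited length of 17717 bases, and in Myα5KO replicate 3 the 1712 genes of 8000 or more bases lay at a median of -0.060 from their mean over libraries on the log2 scale, while those under 2000 bases lay at 0.088. With the length trend removed, the log2 fold change of Lrp1 was -0.18 (adjusted p = 0.289).

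Stab1, a scavenger receptor of alternatively activated macrophages and some endothelia, was at 1860.2, 1668 and 1714 CPM in ITGA5 fl/fl libraries, against 1988, 1979 and 1659 CPM for Myα5KO. The 2 highest libraries were Myα5KO, and so was the lowest, replicate 3. Means were 1747 ± 101 and 1875 ± 188 CPM (SD, n = 3 each), with a log2 fold change of 0.10 (SE 0.086, 95% confidence interval -0.082 to 0.29, adjusted p = 0.520). Without Myα5KO replicate 3 the log2 fold change was 0.18 (adjusted p = 0.125). Summed markers of resident macrophages, a population in which Stab1 is commonly found, lay at 858 to 1109 CPM in ITGA5 fl/fl and 910.2 to 1161 CPM in Myα5KO libraries (exact permutation p = 0.6, two-sided). F13a1 was the largest part of this sum, at means of 474 and 456 CPM. Of the 8 markers 0 were called higher and 1 lower, Vsig4 (log2 fold change -0.79, adjusted p = 0.00284, edgeR). Siglec1 at 0.32 and Timd4 at -0.40 on the log2 scale were not called, so the sum holds markers that moved in both directions. Nt5dc2 on the opposite strand overlaps Stab1, with 768 to 1090 reads per library against at least 27752 for Stab1, and 0.792% of the 50-base words of Stab1 were shared with other genes.

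Of the bridging molecules, Gas6, the ligand of all TAM receptors, was at 279, 298 and 348 CPM in ITGA5 fl/fl libraries, against 292, 277 and 287 CPM for Myα5KO. The 2 highest libraries were ITGA5 fl/fl replicates 2 and 3, and the 3 Myα5KO libraries lay close together. Means were 309 ± 35.6 and 285 ± 7.55 CPM (SD, n = 3 each), and the log2 fold change was -0.11 (SE 0.081, 95% confidence interval -0.29 to 0.060, adjusted p = 0.434). Pros1 encodes protein S, ligand of MERTK and TYRO3 and an anticoagulant cofactor, and was at 82.2, 78.4 and 80.5 CPM in ITGA5 fl/fl libraries, against 84.2, 82.0 and 76.8 CPM for Myα5KO. Its means were 80.4 ± 1.88 and 81.0 ± 3.80 CPM (SD, n = 3 each), and Myα5KO libraries were both the highest and the lowest. Its log2 fold change was 0.011 (SE 0.064, 95% confidence interval -0.13 to 0.15, adjusted p = 0.941), or -8.41% to 10.9%.

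Mfge8, the ligand of αv integrins on the phagocyte, varied as much within as between groups. It was at 219.6, 178 and 232 CPM in ITGA5 fl/fl libraries, against 232, 179 and 194 CPM for Myα5KO. Each group held a library near 232 and another near 179 CPM. Means were 209.8 ± 27.9 and 202 ± 27.3 CPM (SD, n = 3 each), and the log2 fold change was -0.057 (SE 0.11, 95% confidence interval -0.28 to 0.17, adjusted p = 0.797). Fibroblasts and other stromal cells are also known to make GAS6, MFG-E8 and LRP1, and the part of the fibroblast marker difference given above in these values was not tested.

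**Figure D2:**
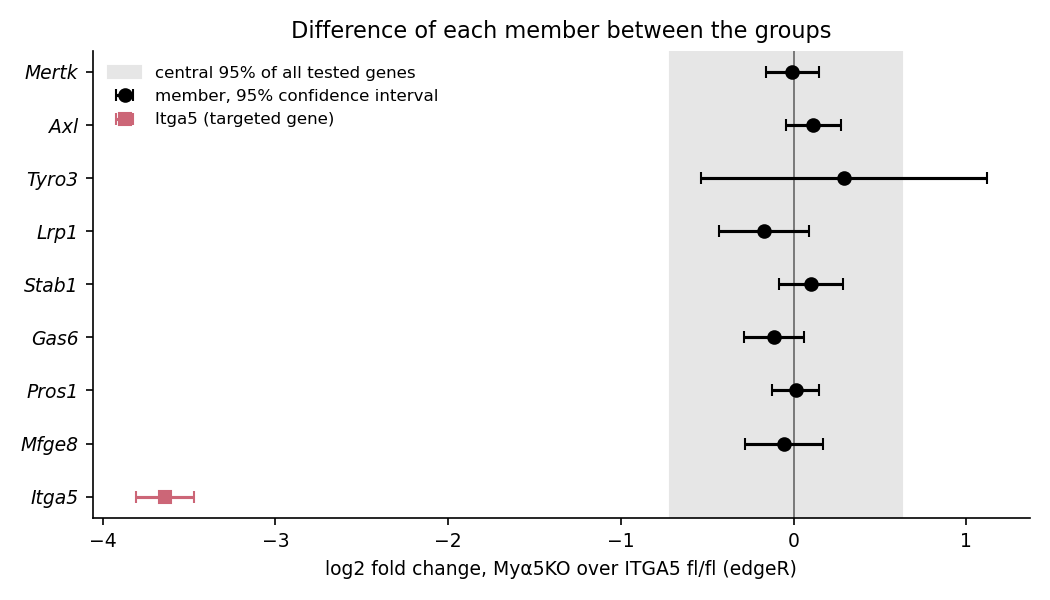
Log2 fold change (Myα5KO over ITGA5 fl/fl, edgeR) with 95% confidence interval for the 8 genes in black and for Itga5 in red, over a grey band from -0.71 to 0.63 that holds the central 95% of all tested genes. Every interval of the 8 genes spans 0, and outside Tyro3 no bound lies farther from 0 than 0.43, while Itga5 lies at -3.64.

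To compare levels between genes, the deposited FPKM values, which are reads per length and depth, were used. Per length, Stab1 was the most abundant of the 8 transcripts, at 169 ± 10.2 FPKM in ITGA5 fl/fl and 181 ± 19.5 FPKM in Myα5KO libraries (SD, n = 3 each). Lrp1 followed at 144 ± 10.2 and 127 ± 26.9 FPKM, and Gas6 at 121 ± 14.03 and 111 ± 2.99 FPKM. Axl came next with 86.1 ± 5.07 and 92.9 ± 5.79 FPKM. Mertk was at 50.1 ± 2.61 and 49.7 ± 3.64 FPKM, and Mfge8 at 44.5 ± 6.05 and 42.6 ± 5.91 FPKM. Pros1 was at 19.6 ± 0.520 and 19.7 ± 1.078 FPKM. Tyro3 was last at 0.097 ± 0.022 and 0.12 ± 0.030 FPKM. Among the tested genes Stab1 stood at the percentile 98.2 of mean FPKM, Mertk at 93.5, Pros1 at 83.9 and Tyro3 at 1.41.

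Neighbours in this order were mostly separated in all libraries when the deposited lengths were used. The ranges over 6 libraries overlapped only for Lrp1 with Gas6, where Lrp1 was higher in 5 of 6 libraries, and for Mertk with Mfge8, where Mertk was higher in 6 of 6 by a mean of 1.16-fold. Axl exceeded Mertk 1.80-fold on average (1.63 to 2.04 across libraries), and Pros1 exceeded Tyro3 by 133-fold to 238-fold. The deposited length merges all exons of a gene, and for Mfge8 it is 4694 bases where the longest annotated transcript has 2330. With the longest transcript as length, Mfge8 stood above Mertk (75.9 to 99.3 against 46.9 to 54.1 over 6 libraries), its range then overlapped that of Axl (94.9 to 117), and the ranges of Axl and Gas6 (108 to 136) overlapped too. The places of Stab1, Lrp1, Pros1 and Tyro3 in the order were the same with both lengths.

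**Figure D3:**
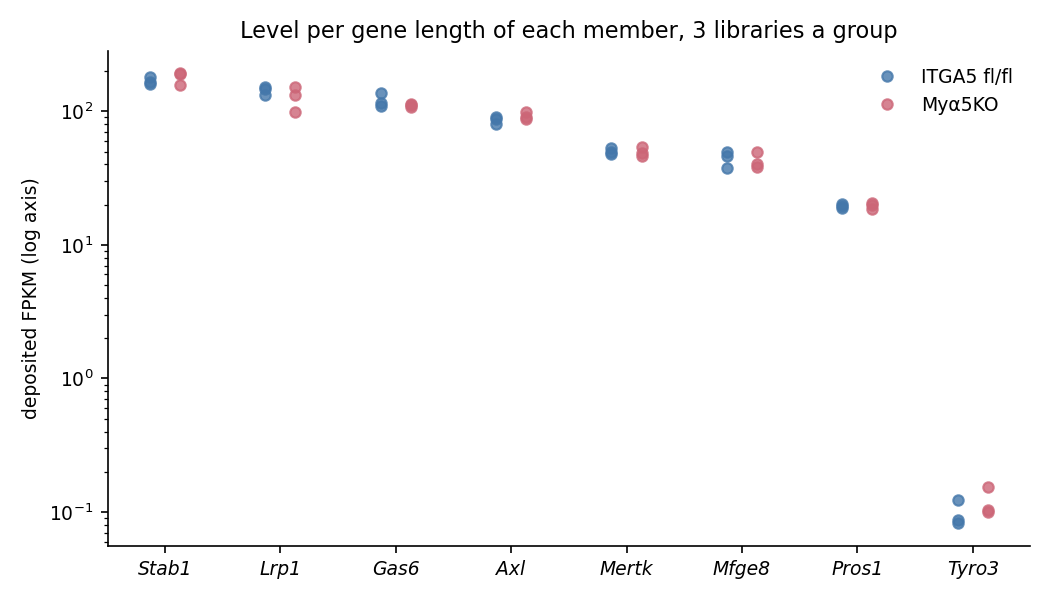
Deposited FPKM of each of the 8 genes on a log axis, in order of level, with 1 point per library (3 ITGA5 fl/fl in blue, 3 Myα5KO in red). Levels run from Stab1 at 158 to 193 FPKM down to Tyro3 at 0.082 to 0.15 FPKM, and the points of the groups overlap for each gene.

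The makeup of the TAM receptor pool was then compared as each gene's share of the summed FPKM of Mertk, Axl and Tyro3. Axl made up 62.3%, 65.2% and 61.9% in ITGA5 fl/fl libraries, against 62.1%, 67.0% and 66.1% for Myα5KO, or 63.1% ± 1.79 and 65.1% ± 2.60 (SD, n = 3 each, exact permutation p = 0.3, two-sided). Mertk made up 36.8% ± 1.81 and 34.8% ± 2.58 (exact permutation p = 0.3), and Tyro3 0.071% ± 0.015 and 0.084% ± 0.022 (exact permutation p = 0.5). Of the summed Gas6 and Pros1 FPKM, Gas6 made up 85.9% ± 1.45 and 84.97% ± 0.663 (exact permutation p = 0.4). The adjusted p over these 4 shares was 0.5 for each, and the smallest p that 3 against 3 libraries can give is 0.1. Axl and Gas6 thus held the larger share of receptor and ligand transcripts in each of the 6 libraries.

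All 8 are protein-coding genes, placed here on GRCm38 with the GENCODE M21 annotation. Mertk (ENSMUSG00000014361) lies on chromosome 2 from 128698956 to 128802894, plus strand, with 19 merged exon blocks and a deposited length of 4336 bases. Tyro3 (ENSMUSG00000027298) lies on the same chromosome and strand from 119797733 to 119818104, with 21 exon blocks. Axl (ENSMUSG00000002602, chromosome 7, 25757273 to 25788705) and Mfge8 (ENSMUSG00000030605, chromosome 7, 79133768 to 79149060) share chromosome 7 and the minus strand. Lrp1 (ENSMUSG00000040249) has 88 exon blocks on chromosome 10 from 127538161 to 127621148, minus strand. Stab1 (ENSMUSG00000042286) has 58 on chromosome 14 from 31139013 to 31168641, minus strand. Gas6 (ENSMUSG00000031451) lies on chromosome 8 from 13465374 to 13494490, minus strand, and Pros1 (ENSMUSG00000022912) on chromosome 16 from 62854307 to 62929346, plus strand. Apart from Stab1, the genes shared no 50-base word with another gene. Genes overlapping Mertk, Gas6 and Lrp1 drew at most 51 reads in any library.

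The surrounding pathway was described by 11 further lists with 103 genes, of which 98 were tested. Of these, 6 were higher and 11 lower in Myα5KO, 17.3% against the 8.75% of all tested genes, and the median log2 fold change was -0.040. The lists were chosen with earlier results of these data known, so these shares do not test whether the pathway differs from other genes. The balance depended on the scaling, with 15 higher and 8 lower under library-size scaling and 11 higher and 9 lower under scaling to macrophage genes. The other recognition receptors had 2 of 15 tested genes called, both lower. Olr1, the lectin-like receptor for oxidized LDL, fell from 125 ± 6.67 to 68.0 ± 14.3 CPM (log2 fold change -0.88, SE 0.12, adjusted p = 0.000645). Cd14, a pattern recognition receptor that also binds apoptotic cells, fell from 4755 ± 159.9 to 3489 ± 239 CPM (log2 fold change -0.45, SE 0.079, adjusted p = 0.00413). Among 10 other bridging molecules and opsonins only Thbs1, thrombospondin 1, was called. It went from 6271 ± 513 to 4099.8 ± 922 CPM (log2 fold change -0.61, SE 0.14, adjusted p = 0.0135), and without ITGA5 fl/fl replicate 3 its adjusted p was 0.0663. The 3 integrin partners of MFG-E8 (Itgav, Itgb3 and Itgb5) had 0 called in edgeR, as had the 5 genes of vitamin K carboxylation, the modification that GAS6 and protein S need.

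Of 15 engulfment genes, 1 was called: Rhog, the small GTPase upstream of ELMO and DOCK proteins, fell by 0.28 on the log2 scale (SE 0.064, adjusted p = 0.0179). That call was lost without ITGA5 fl/fl replicate 2 (adjusted p = 0.0605), without ITGA5 fl/fl replicate 3 (0.0898) and under scaling by total counts (0.0571). Genes of find-me and do-not-eat-me signals had 2 of 9 higher and 2 lower. The fractalkine receptor Cx3cr1 rose from 269 ± 8.51 to 366 ± 26.4 CPM (log2 fold change 0.44, SE 0.071, adjusted p = 0.00219), and Siglecg, an inhibitory lectin receptor, from 13.9 ± 0.938 to 19.8 ± 2.94 CPM (log2 fold change 0.51, SE 0.12, adjusted p = 0.0166). P2ry2, a receptor for extracellular nucleotides, fell by 0.57 (SE 0.085, adjusted p = 0.00143) and S1pr1, a receptor for sphingosine 1-phosphate, by 0.33 (SE 0.068, adjusted p = 0.00970) on the log2 scale. The Siglecg call was lost without ITGA5 fl/fl replicate 1 (adjusted p = 0.0503), ITGA5 fl/fl replicate 2 (0.0705) or Myα5KO replicate 1 (0.0573). Siglecg is also known from B cells and Cx3cr1 from non-classical monocytes, and summed B cell markers lay at 227 to 263 CPM in ITGA5 fl/fl and 239.6 to 309 CPM in Myα5KO libraries. Of 9 monocyte markers 5 were called higher. The part of these cells in both values was not tested.

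Genes that handle corpse lipids moved in both directions. Abca1, the cholesterol exporter to apolipoprotein A-I, fell from 1601 ± 133 to 1018 ± 169 CPM (log2 fold change -0.65, SE 0.11, adjusted p = 0.00291). Abcg1, which exports cholesterol to HDL, went from 103 ± 9.02 to 125 ± 1.67 CPM (log2 fold change 0.28, SE 0.070, adjusted p = 0.0247). The Abcg1 call was lost without ITGA5 fl/fl replicate 2 (adjusted p = 0.109), ITGA5 fl/fl replicate 3 (0.120) or Myα5KO replicate 2 (0.0851). Of 6 tested lipid-sensing nuclear receptors, Ppard was lower (log2 fold change -0.54, SE 0.10, adjusted p = 0.00578) and Nr1h3, which encodes LXRα, was higher (log2 fold change 0.31, SE 0.091, adjusted p = 0.0492). The Nr1h3 call was lost on leaving out any of the 6 libraries, with adjusted p from 0.0606 to 0.186.

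Among 5 genes of ectodomain shedding, which include proteases that cleave MERTK and AXL from the cell surface and regulators of shedding, only Rhbdf2 was called. It encodes iRhom2, needed for maturation of the protease ADAM17, and fell from 262 ± 8.80 to 192 ± 4.42 CPM (log2 fold change -0.45, SE 0.063, adjusted p = 0.000921). The protease genes themselves were not called, with Adam17 at 0.040 (adjusted p = 0.772) and Adam10 at 0.093 (adjusted p = 0.493) on the log2 scale. Of 15 tested phagosome genes, Rubcn, a factor of LC3-associated phagocytosis, rose from 32.0 ± 1.10 to 41.7 ± 1.00 CPM (log2 fold change 0.38, SE 0.072, adjusted p = 0.00578). Uvrag was lower in the full comparison (log2 fold change -0.21, adjusted p = 0.0456), a call lost on leaving out any of the 6 libraries, with adjusted p from 0.0570 to 0.160. Of 10 tested genes downstream of TAM receptors, 1 was called higher and 1 lower. The lower one, Pik3r1, a regulatory subunit of PI3 kinase, had a log2 fold change of -0.27 (adjusted p = 0.0341). Its call was lost on leaving out any library except Myα5KO replicate 1, with adjusted p from 0.0695 to 0.113.

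**Figure D4:**
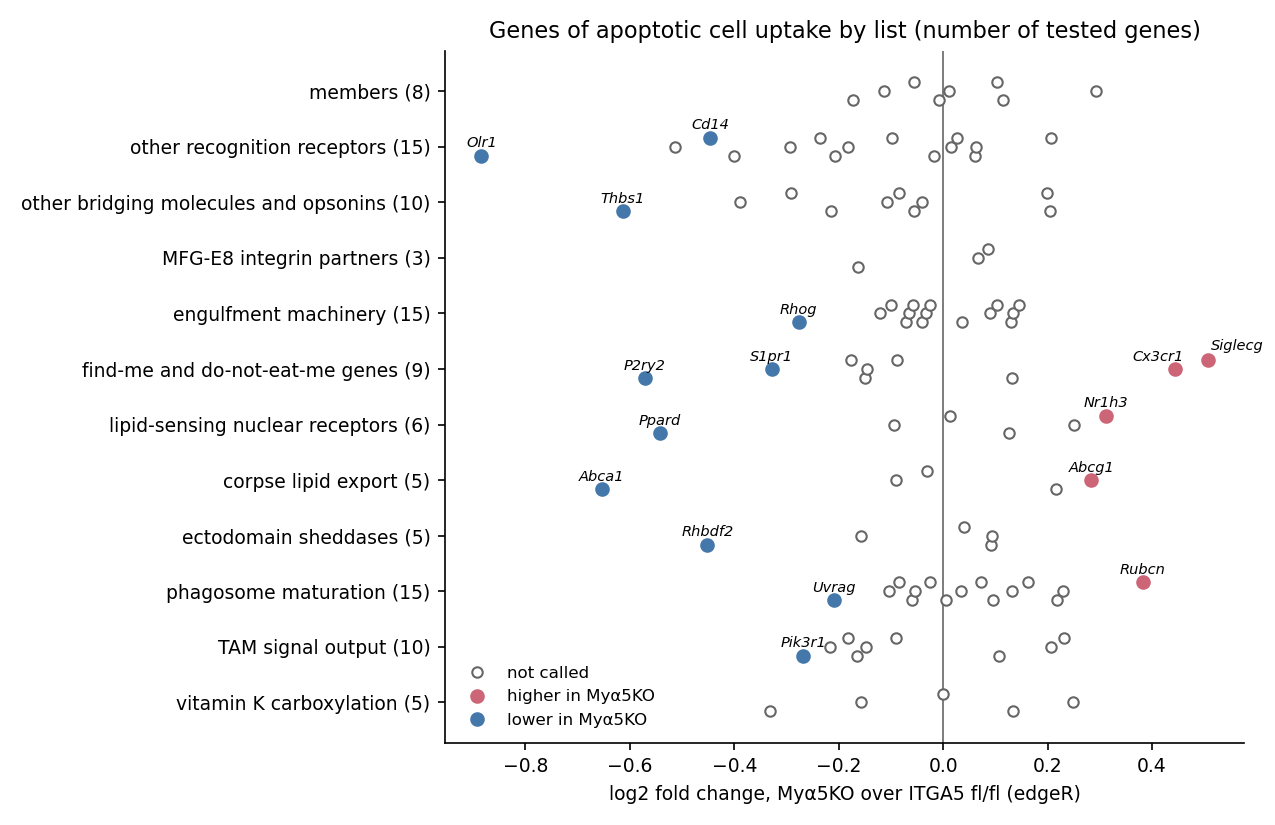
Log2 fold change (Myα5KO over ITGA5 fl/fl, edgeR) of the tested genes, 1 point per gene with 1 gene left out of the plot, for the 8 genes (top line) and the 11 other lists, with the number of tested genes in parentheses, red for higher, blue for lower and open for not called. All 8 points of the top line are open and lie between -0.17 and 0.29, while called genes in the other lists lie on both sides of 0, from Olr1 at -0.88 to Siglecg at 0.51.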

How the data were processed

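Reads of polyadenylated RNA were aligned by the authors to GRCm38 (mm10) with TopHat2 2.0.9, assembled with Cufflinks 2.1.1 and counted per gene with HTSeq 0.6.1. The deposited counts are whole reads per gene without normalization, and how strand and multi-mapped reads were handled is not stated in the sources used here. The authors also deposited FPKM. In each library a count equalled the gene length times the FPKM times a constant, within a relative spread of 1.01e-14 (checked over 12009 genes), so FPKM add a single deposited length per gene and a library scaling. Groups and replicate numbers came from sample titles. The titles do not say whether equal replicate numbers mark pairs, and the main comparison did not treat them as pairs. Correlations of same-numbered deviations were 0.0756, -0.161 and 0.0243, within the range of other-numbered ones (-0.171 to 0.185). With 3 libraries in a group these correlations cannot decide whether numbers mark pairs.

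Differences in counts were assessed by quasi-likelihood in edgeR 4.0.16 (R 4.3.3, TMM scaling, expression filter with a minimum count of 10 and a total of 15, no covariate), which kept 14522 of 27687 genes with any count. P-values were two-sided and adjusted by Benjamini-Hochberg over all tested genes, with calls at 0.05 or less. DESeq2 1.42.0 and limma 3.58.1 were alternatives. Shares and marker sums were compared by exact permutation over libraries. Scripts were tested on simulated data. Confidence intervals are those of the edgeR coefficient.

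The 8 genes, the 11 pathway lists and the marker lists were chosen with earlier results of these data known. Genes named are the 8, Itga5 and Lyz2, and in each list the called genes, up to 4 with the smallest adjusted p, except 1 gene that is counted but not reported here by name. Alternatives were other tests and scalings (one to summed macrophage genes), no count filter, a floor of 10 counts in each library, pseudocounts of 1 and 0.1 on log2 FPKM (genes reaching an FPKM of 1 in 3 or more libraries), a replicate block, each library left out, an adjusted p of 0.01 and a minimum of 1.5-fold. Removal of the gene length trend, levels per longest transcript and the macrophage marker sum without Lyz2 and Cd14 were chosen after seeing the data. Totals of 15424451 to 18419287 reads without molecular identifiers give a precision that covers counting error only. Other data types that the study describes, in vitro and single-cell, were not used here.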

Additional observations from a re-analysis of the deposited data

How the results depend on the processing

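The number of the 8 genes called was 0 under each of the 20 alternatives. At an unadjusted p under 0.05, Stab1 and Axl passed under library-size scaling, Lrp1 with no count filter or without Myα5KO replicate 1, Gas6 without ITGA5 fl/fl replicate 1, and Stab1 without Myα5KO replicate 3. Near 0, signs turned: Mertk was at 0.073 under library-size scaling and 0.032 under macrophage gene scaling, Mfge8 at 0.025 under library-size scaling, and Pros1 at -0.0047 with at least 10 counts in every library. Leaving out 1 library gave -0.067 to 0.032 for Mertk, -0.022 to 0.049 for Pros1 and -0.17 to 0.020 for Mfge8, and -29.0 to 109 CPM for the group difference in resident macrophage markers. In these settings the cause was not tested. With the longest transcript as length, the ratio of Mertk to Mfge8 turned from 1.16 to 0.578, since the length of Mfge8 shortens.

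Among all genes, 1271 calls became 472 with limma on log2(FPKM + 1), 448 on log2(FPKM + 0.1), 470 at an adjusted p of 0.01 and 15 against a minimum of 1.5-fold, and lay between 616 and 1091 on leaving out a library, lowest without ITGA5 fl/fl replicate 3. The 17 calls in other uptake genes became 9, 8, 10 and 0 in the same 4 settings, and 11 to 17 on leaving out a library. Library-size scaling moved the lower share of calls from 59.3% to 29.9% (1212 higher and 518 lower) and macrophage gene scaling to 45.7%. A fit with the replicate number as a block called 464 genes higher and 717 lower, none of the 8 (smallest adjusted p 0.342), and lost the calls of Nr1h3 (adjusted p 0.0622) and Uvrag (0.0582). Library-size scaling also ended the calls of Rhog (0.0571), Uvrag (0.173) and Pik3r1 (0.0981), DESeq2 that of Nr1h3 (0.103), and limma on log2(FPKM + 1) those of Thbs1 (0.0866), Ppard (0.0635), Siglecg (0.0756) and Abcg1 (0.0748), among others. Depth limited Tyro3, whose 8 to 18 reads left it without an adjusted p in DESeq2 and untested on FPKM or with at least 10 counts in every library.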
